A study of Rattus norvegicus with 90 samples.

Results

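The liver transcripts described here were raised 8 h after a high dose of thioacetamide and lay near the vehicle level, relative to the other liver transcripts, 24 h after it. They were chosen by a rule on the measured values, which 63 of the 40071 transcripts of the series met. The rule used L, the log2 ratio of the mean CPM (a transcript's counts per 1000000 transcript counts of the library) of the high-dose and vehicle groups with 1 CPM added to each, minus the median of that ratio over the transcripts with a vehicle mean of 1 CPM or more. A member had a liver L of at least 1.5 at 8 h, a liver L between -0.5 and 0.5 at 24 h, a vehicle level of at least 0.5 CPM in liver at 8 h and a kidney L below 1 at 8 h. The high-dose liver differences at both times and the high-dose kidney difference at 8 h therefore chose the members, and they are given below as a description.

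RNA-seq was performed on liver, kidney and heart of male Sprague-Dawley rats, an outbred laboratory strain, bought at an age of 10 weeks. Each rat received a single intraperitoneal injection of vehicle (3 ml/kg of saline), of a low dose of thioacetamide (25 mg/kg) or of a high dose (100 mg/kg), and tissues were collected 8 or 24 h later, with 5 samples in each of the 18 groups of organ, dose and time. The 3 organs came from the same animals. All rats carried a jugular vein catheter and went without food for the last 8 h, which for the 8 h groups was the whole interval after a morning injection, while the 24 h groups were injected in the evening and were fed until the next morning. The time groups therefore differ in feeding and in the hour of injection as well as in the interval, which cannot be told apart.

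Thioacetamide is a liver toxicant that needs to be oxidized, by cytochrome P450 and flavin-containing monooxygenases, before it damages tissue. Its reactive products bind cell proteins and lipids and kill hepatocytes around the central vein of the liver lobule. A transcriptional response to such an insult commonly has a wave of transcripts that rise within hours and then decline, beside transcripts that stay raised while the tissue is repaired. The deposited tables name Ensembl transcripts and pair none of them with a gene, and the gene table at hand held 0 Ensembl rat identifiers, so the members are described by their levels, and the pathways, cell type markers and sequences of the members are not analysed here. Only the 2 members with the largest 8 h difference are named by identifier.

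The transcript counts of a library ranged from 13429990 to 34299122, and were at least 15870343 in liver. The organ label could not be checked against marker genes without gene names, and all 90 libraries were most similar to a library of the same organ. A pair of libraries with different labels held nearly the same data. The 24 h vehicle liver library MS-1 and the 8 h low-dose liver library MS-9 were within 1 count of each other in 99.96% of the 15797 transcripts with 10 counts or more in either, and in all 63 members. The files do not state which of the labels is right. The members' summed level was 1829 CPM in both libraries. It was 602 to 863 CPM in the other 24 h vehicle livers and 1334 to 1570 CPM in the other 8 h low-dose livers. Which label is right was not tested. The rule left MS-1 out, it is left out of every 24 h vehicle mean below unless stated, and the low-dose results at 8 h, which contain MS-9, are given without it as well. In bulk tissue, fewer cells of a type and less RNA per cell cannot be told apart.

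As the rule required, the members were higher in the high-dose liver at 8 h. Their summed level in the 8 h vehicle group was 622, 744 and 849 CPM at the lowest, the median and the highest library. In the high-dose group these values were 2654, 2813 and 3213 CPM, a ratio of group means of 3.94 (means of 2905 ± 244 and 737 ± 97.8 CPM, SD, n = 5 each). No high-dose library reached down to the vehicle libraries. The low-dose libraries lay between the groups, from 1334 CPM to 1829 CPM in MS-9, with a ratio of 2.04 to vehicle, and without MS-9 the highest stood at 1570 CPM and the ratio was 1.93. At 24 h the vehicle libraries spanned 602 to 863 CPM, the low-dose libraries 783 to 1066 CPM and the high-dose libraries 1165 to 1529 CPM. The summed level in the 24 h high-dose libraries was thus above that of every vehicle library other than MS-1, which stood at 1829 CPM, and below that of every 8 h high-dose library.

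**Figure D1:**
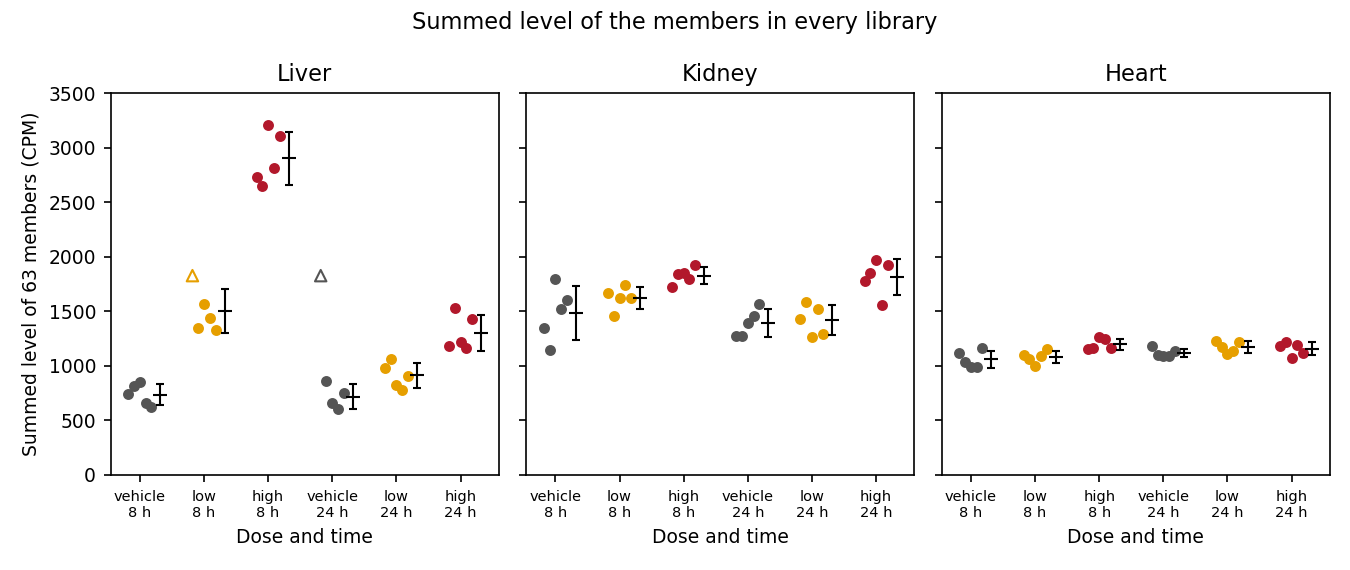
Summed level of the 63 members (CPM, vertical axis) in each library by dose and time, with 1 panel for each organ, where the bars show the mean and SD of each group and the open triangles are the near-identical libraries MS-9 (8 h low dose, kept in the mean) and MS-1 (24 h vehicle, left out of it). In liver the 8 h high-dose libraries lie between 2654 and 3213 CPM, above all others, and the 24 h high-dose libraries between 1165 and 1529 CPM.

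Across the members, L in the high-dose liver at 8 h had a median of 1.77 and ranged from 1.503 to 3.27. The members nearest to the threshold had an L of 1.503 and 1.506, and the nearest transcripts outside it 1.497 and 1.496. In 57 of the 63 members every high-dose value was above every vehicle value in CPM, against 22.3% of all transcripts with a vehicle mean of 1 CPM or more. The other 6 members overlapped, although the rule passed them on their means. The spread of a member over the high-dose libraries was moderate, with a median coefficient of variation of 25.7% and a range of 4.34% to 130%. It was 50% or more in 10 members. Of the 63 members, 33 had their highest high-dose value in library MS-14 and 19 in MS-27, so the peak values of most members came from the same animals. MS-14 also held the largest share of counts on genomic intervals among the high-dose libraries at 8 h (28.9%, against 8.19% in MS-27), as MS-15 (26.4%) and MS-16 (23.6%) did among the low-dose and vehicle libraries. The part of this share in the levels was not tested. Without MS-14 the rule gave 55 members, 49 of them among the 63.

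In edgeR's quasi-likelihood test on the counts, with an adjusted p of at most 0.01 and a difference of at least 0.60 on the natural log scale (0.87 on the log2 scale) as the call, 56 of the 63 members were called higher in the high-dose liver at 8 h and 0 lower. The background was 12.4% of 16468 transcripts called higher and 7.75% lower, and the count only describes what the rule had chosen. The 7 members not called had adjusted p values of 0.0143 to 0.155 and coefficients of variation of 39.04% to 130% over the high-dose libraries, so that the rule on means passed some members whose difference did not pass the test.

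ENSRNOT00000046811, the member with the largest L at 8 h (3.27), has a length of 14269 bases. In the 8 h vehicle liver its level was 0.929, 0.358, 0.655, 0.423 and 0.179 CPM. In the 8 h high-dose liver it was 20.8, 10.4, 13.6, 11.8 and 13.6 CPM, and the low-dose libraries held 7.77 (MS-9), 2.81, 5.42, 3.68 and 3.62 CPM. All 5 low-dose values were above all vehicle values, and all 5 high-dose values were above all low-dose values. At 24 h the vehicle libraries without MS-1 held 0, 0.262, 0.687 and 0.25 CPM. The 24 h high-dose libraries held 2.36, 2.11, 1.57, 1.06 and 2.2 CPM, all above vehicle and all far below their 8 h counterparts. The 24 h low-dose libraries held 0.376, 1.41, 0.351, 0.615 and 1.81 CPM, which overlapped the vehicle range. In kidney and heart this transcript was at or near 0, with a highest value of 0.986 CPM in a single kidney library.

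ENSRNOT00000019346, the member with the next largest L at 8 h (2.75), behaved otherwise. It has a length of 4573 bases, and its 8 h vehicle levels were 8.79, 14.4, 16.1, 43.8 and 19.7 CPM. In the 8 h high-dose group it stood at 390 CPM in library MS-8 and 286 CPM in MS-17, while the other libraries held 21.8, 19.1 and 30.7 CPM, inside the vehicle range. Its large L rests on these 2 libraries, and edgeR's quasi-likelihood test did not call it (log2 difference 2.67 ± 0.91, SE, adjusted p = 0.0318). At 24 h its high-dose levels were 18.6, 41.5, 32, 109.4 and 46.1 CPM against 26, 27, 20.8 and 16.8 CPM in vehicle, and the groups overlapped.

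**Figure D2:**
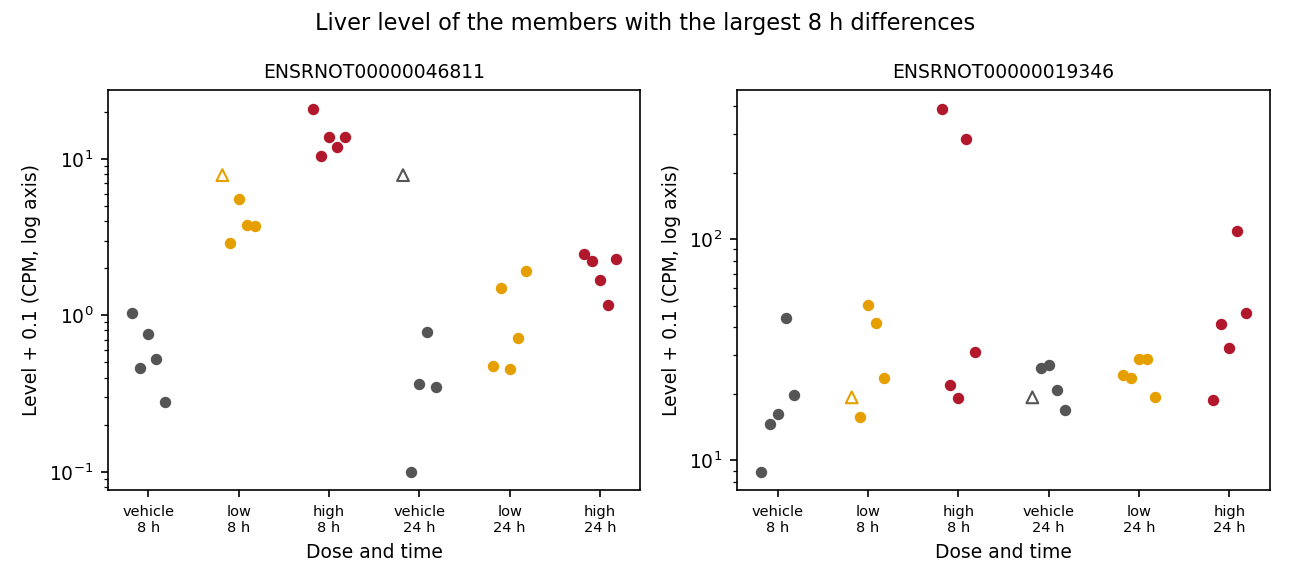
Level of ENSRNOT00000046811 (left) and ENSRNOT00000019346 (right) in each liver library by dose and time, in CPM with 0.1 added on a log axis, where the open triangles mark MS-9 (8 h low dose) and MS-1 (24 h vehicle). The first rises in all 5 high-dose libraries at 8 h, and the second exceeds 100 CPM only in MS-8 and MS-17 at 8 h and in 1 library at 24 h.

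The most abundant member, which took 23.3% of the summed level in the 8 h high-dose group, is given as a further example, without its identifier, and was picked out after its values were seen. Its 8 h vehicle levels were 199, 227, 204, 141 and 187 CPM, and its 8 h high-dose levels 721, 517, 651, 694 and 808 CPM. At 24 h the high-dose libraries held 154, 160, 115, 110 and 206 CPM, which overlapped the vehicle libraries at 188, 98.5, 96.6 and 117 CPM. The low-dose libraries held 315 (MS-9), 285, 272, 273 and 251 CPM at 8 h, and 172, 155, 76.3, 66.1 and 88 CPM at 24 h. No low-dose value at 24 h reached a low-dose value at 8 h, with or without MS-9.

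The members started from low to moderate levels. The vehicle mean at 8 h was 10 CPM or more in 16 members, 1 to 10 CPM in 37 and under 1 CPM in 10, with a median of 6.23 CPM. Over all 15611 transcripts with a vehicle mean of 0.5 CPM or more that median was 7.95 CPM. In the other 549 transcripts that met the 8 h criteria in liver it was 4.43 CPM. The mean was 1 CPM or more in 84.1% of the members and in 89.6% of the 15611. The median of the member means was 12.8 CPM at the low dose and 23.1 CPM at the high dose at 8 h. At 24 h these medians were 5.14, 7.87 and 11.1 CPM for vehicle, low dose and high dose. In vehicle rats the members differed between the times by a median of 0.10 on the log2 scale (24 h minus 8 h, range -0.61 to 1.25). The median over all transcripts with an 8 h vehicle mean of 1 CPM or more was -0.03. The difference was within 0.5 either way in 51 members, at 0.5 or more in 11 and at -0.5 or less in 1. The shares over all transcripts were not counted. Both vehicle groups entered the rule, so these values are a description.

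The high-dose level was lower at 24 h than at 8 h in 61 of 63 members, by a median of 0.84 on the log2 scale, and at least 2-fold lower in 22. This comparison uses the groups that chose the members, and it is a description. The members were the smaller share of the transcripts induced early. Of the 612 transcripts that met the criteria on level and size in liver at 8 h, whatever their course, 521 (85.1%) had an L above 0.5 at 24 h, 76 were within 0.5 either way and 15 were below -0.5. Of these 76, 13 had a kidney L of 1 or more at 8 h and were therefore not members. The median L at 24 h of all 612 was 1.31.

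Within the window at 24 h the members sat toward its upper edge. Their L at 24 h had a median of 0.31 and ranged from -0.47 to 0.50, and it was above 0 in 46 of 63. It was above 0.25 in 37 members, within 0.25 either way in 18 and below -0.25 in 8. The values just inside the upper edge were 0.498 in both nearest members, and just outside it 0.522 in both nearest transcripts, while 119 early-induced transcripts lay between 0.5 and 1. At the lower edge the members had -0.470 and -0.461, and the next transcripts outside had -0.612 and -0.823. The upper edge therefore cuts through a continuous run of values.

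Whether the members were back at the vehicle level at 24 h depended on the scale. The median log2 ratio of CPM over all transcripts, which L subtracts, was 0.05 at 8 h and 0.68 at 24 h for the high dose, and 0.25 and 0.44 for the low dose. Without that subtraction the members' median log2 ratio at 24 h was 0.99, all 63 had a higher mean CPM at the high dose than in vehicle, and 35 had every high-dose value above every vehicle value. Of all transcripts with a vehicle mean of 1 CPM or more, 55.8% were separated in this way. The number of members within 0.5 of vehicle was 10 on uncentred CPM, 12 on TPM, the deposited abundance that also scales by transcript length, and 53 on CPM scaled by TMM, the trimmed mean of M-values. The 20 transcripts most abundant in 24 h vehicle liver took 30.5% to 33.9% of the counts of a vehicle library and 21.5% to 25.7% of a high-dose library at 24 h, while at 8 h the ranges overlapped (28.03% to 34.8% and 28.5% to 31.8%). The part of this change in the result was not tested.

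**Figure D3:**
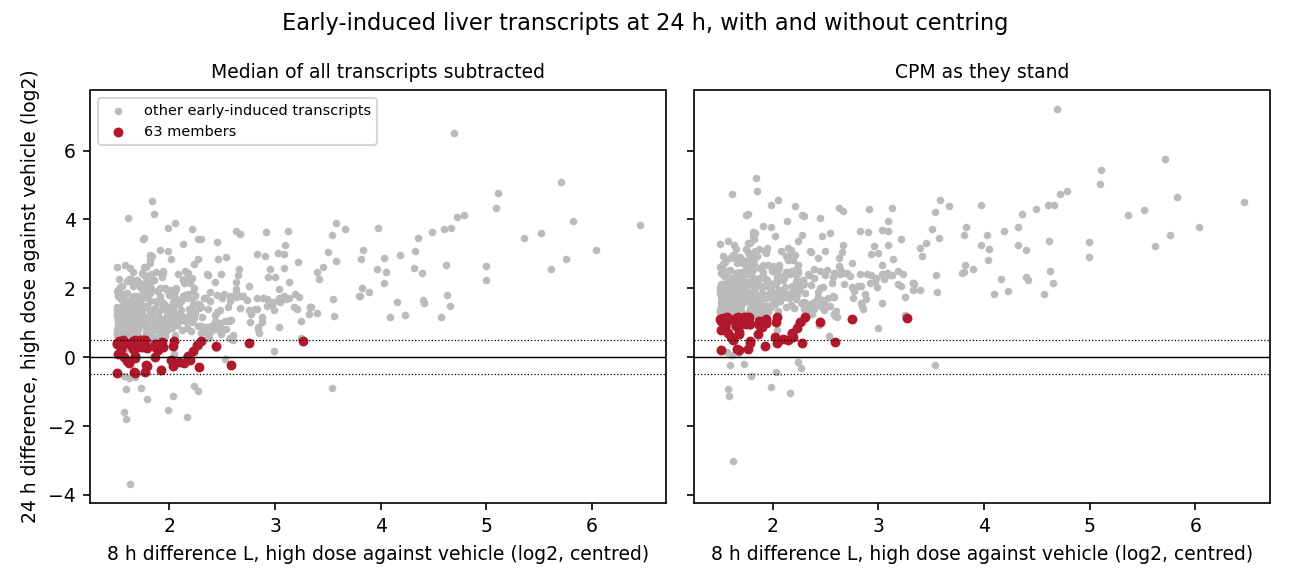
Difference between high dose and vehicle in liver at 24 h (log2, vertical axis) against L at 8 h (log2, horizontal axis) for the 612 early-induced transcripts, with the 63 members in red. On the left the median of all transcripts is subtracted and the members lie between -0.47 and 0.50 (dotted lines at 0.5 either way), and on the right CPM are taken as they stand and the members have a median of 0.99.

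In edgeR's quasi-likelihood test with TMM scaling, 0 of the 63 members were called at 24 h at the high dose, in either direction, against a background of 13.2% of 17137 transcripts higher and 13.6% lower. At an unadjusted p under 0.05 there were 19 members (30.2%, background 58.9%). With libraries scaled by their total alone, 35 members were called higher, where 42.4% of all transcripts were. limma on log2(TPM + 1) called 32 higher (background 41.5%), and DESeq2 called 1 (background 9.21%). The rule had used these same libraries to keep only transcripts with a small L at 24 h. These counts therefore only describe what the rule had chosen, and a return to the vehicle level cannot be read from them. The log2 difference in the edgeR fit had a median of 0.25 over the members and a range of -0.62 to 1.71, and 44 of 63 were above 0. The largest was that of ENSRNOT00000046811 (1.71 ± 0.69, SE, adjusted p = 0.0582 by the quasi-likelihood test). Its mean was 0.30 CPM in vehicle and 1.86 CPM at the high dose. L adds 1 CPM to each mean, which narrows the ratio of so scarce a transcript. With MS-1 kept among the vehicle libraries the median over the members was -0.01 and 29 members were above 0.

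The low dose gives a comparison that the rule did not use, since neither low-dose liver group entered it. Between the low-dose groups at 8 and 24 h, 19 of the 63 members (30.2%) were called higher at 8 h and 0 lower by edgeR's quasi-likelihood test, where 2.22% of 16792 transcripts were called higher and 1.92% lower. All 63 passed the filter on low counts. The log2 difference had a median of 0.85 over the members, against 0.03 over all transcripts tested, with a range of -0.31 to 2.53, and it was above 0 in 62 of 63 members, where 52.95% of all transcripts were. The 19 called members differed by 0.92 to 2.53. In 32 members every 8 h value was above every 24 h value after TMM scaling (background 10.3%), and in 0 members was the reverse true (background 9.11%). The animals of these groups did not choose the members, and the groups differ in feeding and hour of injection as well as in the interval.

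Library MS-9 belongs to this comparison and decided part of the count. Without it 11 members were called higher (17.5%) and 0 lower (background 1.14% of 17150 transcripts higher and 1.59% lower), all 11 among the 19, with a median log2 difference of 0.70, and 29 members had groups that did not overlap (background 9.05%). Leaving out library MS-2, of the 24 h low-dose group, gave 12. The other single libraries gave counts within 1.5 times the 19. limma on log2(TPM + 1) called 3 members higher and 0 lower (background 0.53% and 3.48%), and its median over the members was 0.38. The median over all transcripts was -0.20 in that fit.

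**Figure D4:**
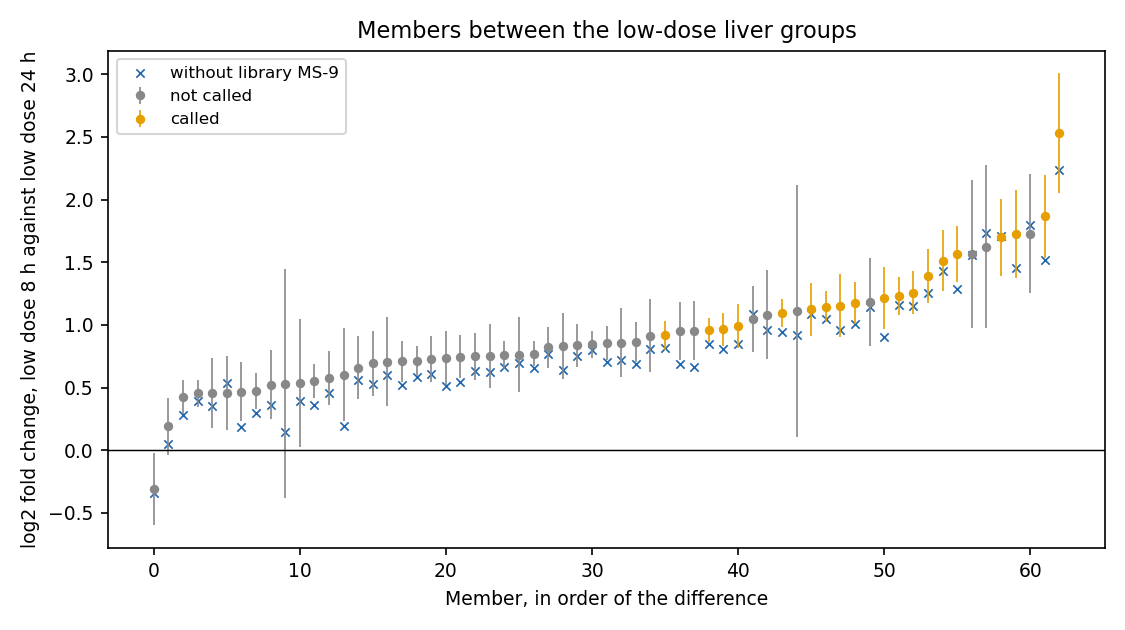
Log2 fold change between the low-dose liver groups (8 h against 24 h, edgeR, vertical axis) for each of the 63 members in order of size, with bars of 1 SE, members called in orange and the value without library MS-9 as a blue cross. All but 1 member lie above 0, and most crosses lie below their point.

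ENSRNOT00000046811 had the largest low-dose difference between the times. Its log2 difference was 2.53 ± 0.48 (SE, adjusted p = 0.00393 by edgeR's quasi-likelihood test), and every 8 h value was above every 24 h value. Without MS-9 it was 2.24 ± 0.47 with an adjusted p of 0.0105, just above the limit of 0.01. It also missed that limit without MS-2 (adjusted p = 0.0109), without MS-22 (adjusted p = 0.0134) and in limma on log2(TPM + 1), where the difference was 0.33 (adjusted p = 0.018). Over the 16 alternatives its adjusted p ranged from 3.09e-06 to 0.018. ENSRNOT00000019346 was not called, at 0.46 ± 0.30 (adjusted p = 0.278), and its low-dose values of 15.6 to 50.3 CPM at 8 h overlapped those of 19.3 to 28.7 CPM at 24 h. The most abundant member differed by 1.51 ± 0.24 (adjusted p = 0.00199), and by 1.43 ± 0.26 without MS-9 (adjusted p = 0.00625).

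The low-dose difference had a similar median at each starting level. It was 0.86 in the 16 members with a vehicle mean of 10 CPM or more, 0.84 in the 37 members from 1 to 10 CPM and 0.85 in the 10 members under 1 CPM. The standard errors were larger in the scarcer members, with medians of 0.15, 0.24 and 0.34, and the members called were 7, 9 and 3. The 1 member below 0 held 4.34 (MS-9), 3.5, 2.86, 3.65 and 7.92 CPM at 8 h and 9.12, 6.23, 4.23, 6.48 and 5.3 CPM at 24 h, and the groups overlapped (log2 difference -0.31 ± 0.29, adjusted p = 0.462).

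Against vehicle, the low-dose comparisons share the vehicle animals with the rule and are set beside the high-dose values only. The 8 h high-dose values also chose the members. The ratio of low to high dose, the dose order and the low-dose values below all high-dose values are therefore descriptions. At 8 h the low-dose L had a median of 0.93 and a range of 0.16 to 1.66, and 57 members had an L of 0.5 or more, against 17.6% of all transcripts. The ratio of the low-dose to the high-dose L had a median of 0.50 and ranged from 0.098 to 0.950. The group means followed the order vehicle, low dose, high dose in 62 of 63 members. The rule had placed the high-dose mean above vehicle, and the share of all transcripts in this order was not counted. In 22 members every low-dose value was below every high-dose value (2.19% of all transcripts with a vehicle mean of 1 CPM or more). Without MS-9 the median low-dose L was 0.83, with 50 members at 0.5 or more (16.5% of all transcripts), the median ratio was 0.44, the same order held in 62 members and 37 members had every low-dose value below every high-dose value (3.87% of all). edgeR's quasi-likelihood test called 30 members higher and 0 lower (background 5.78% and 4.1%), and 17 higher without MS-9 (background 4.25%). At 24 h the low-dose L had a median of -0.03, and 0 members were called (background 4.89% higher and 4.15% lower), with 11 at an unadjusted p under 0.05 (17.5%, background 42.7%). limma on log2(TPM + 1) called 4 higher there (background 24.7%) and DESeq2 0 (background 4.12% higher).

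Most members were also expressed in the other organs. Of the 63, 52 had a vehicle mean of 1 CPM or more in kidney and 51 in heart at 8 h. Liver held the lowest of the 3 levels in 35 members (55.6%) and the highest in 12 (19.05%), close to the shares over the 15611 transcripts with 0.5 CPM or more in vehicle liver at 8 h (59.02% and 15.8%). Among the other 549 early-induced transcripts the shares were 69.03% and 9.84%. The members had a median length of 2728 bases (range 768 to 14269), against 2412 in the other early-induced transcripts and 2178 in all. Counts were whole numbers in all 30 liver libraries, within 0.001, in 18 members (28.6%), against 46.1% of the other early-induced transcripts and 39.3% of all. A count that is not whole shows that reads were divided among transcripts that share sequence. How uncertain that division was for a member was not measured.

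In kidney, the rule set only an upper limit on L at 8 h. The high-dose L there had a median of 0.40 and was 0.5 or more in 28 members (background 6.87%). There edgeR's quasi-likelihood test called 4 of 58 tested members higher and 1 lower (background 1.09% and 0.409%). The member called lower held 169, 217, 378, 232 and 278 CPM in vehicle kidney at 8 h and 108.1, 97.5, 63.8, 93.8 and 93.7 CPM at the high dose, with no overlap, and it was picked out after its values were seen.

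At 24 h the rule used livers of the same vehicle and high-dose rats, but not the kidney. There, 8 of the 57 members that passed the filter on low counts (14.04%) were called higher at the high dose and 0 lower by edgeR's quasi-likelihood test, against 2.15% and 2.04% of 18967 transcripts. Their log2 differences were 0.95 to 1.70, with adjusted p values of 0.000845 to 0.00912. The median over the tested members was 0.45, against 0.02 over all, and 50 of the 57 were above 0. In 17 of the 63 members every high-dose value was above every vehicle value in CPM (background 9.4%). The most abundant member in liver was among the 8: it held 36.5, 40.2, 32.3, 31.5 and 36 CPM in vehicle kidney and 77.3, 87.3, 75.8, 52.9 and 76.4 CPM at the high dose, a log2 difference of 0.95 ± 0.13 (adjusted p = 0.000845). Of the 8 members, 4 were also among the 19 called between the low-dose liver groups. In kidney at 8 h, where the rule had removed transcripts with an L of 1 or more, 0 of the 8 were called. The count was sensitive to single libraries: it was 3 to 5 when any of the vehicle libraries MS-31, MS-34, MS-50 and MS-103 or the high-dose libraries MS-33, MS-36, MS-54 and MS-56 was left out, and 6 or 8 without MS-51 or MS-106. The low dose gave 0 called members in kidney at 8 h (background 0.175% higher and 0.0425% lower) and at 24 h (0.0377% higher and 0.0216% lower), with 12 and 5 at an unadjusted p under 0.05 (21.1% and 8.93% of the tested members, against 11.9% and 11.5% of all transcripts). DESeq2 called 1 lower at 8 h and 0 at 24 h, and limma 0 at both.

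In heart the high-dose L had a median of 0.13 at 8 h and 0.04 at 24 h. At 8 h, 0 of 55 tested members were called by edgeR's quasi-likelihood test, with 10 at an unadjusted p under 0.05 (18.2%, background 9.69%), and 0.0171% of all transcripts were called higher there. At 24 h 1 of 55 tested members was called higher (background 0.677%), at 0.919 ± 0.222 CPM in vehicle and 2.14 ± 0.389 CPM at the high dose (SD, n = 5 each; log2 difference 1.24 ± 0.23, adjusted p = 0.00926). It was not called when any one of the libraries of these groups other than MS-84 was left out. At the low dose 0 members were called at either time, as were 0 of all transcripts, with 2 and 3 members at an unadjusted p under 0.05 at 8 and 24 h (3.64% and 5.45%, background 3.93% and 9.17%). DESeq2 and limma called 0 members in heart at the low dose and at 8 h at the high dose.

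**Figure D5:**
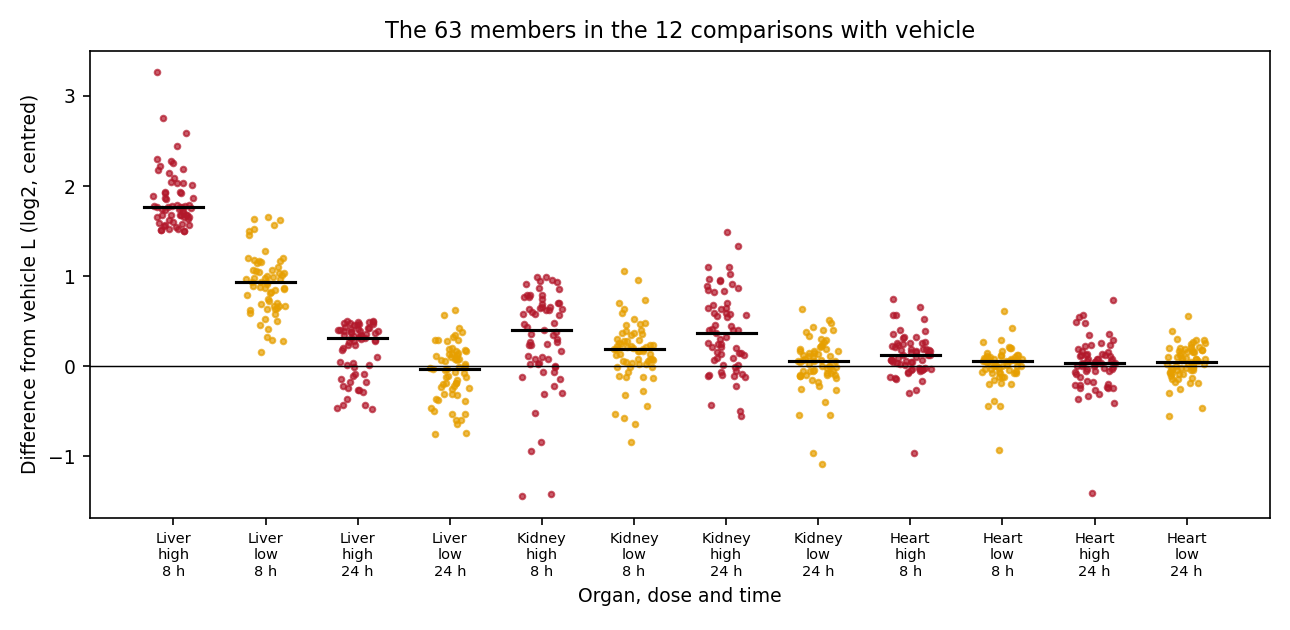
L of each of the 63 members (log2, vertical axis) in the 12 comparisons of a dose with vehicle, by organ, dose and time, with a black line at the median. The liver medians are 1.77 (high dose) and 0.93 (low dose) at 8 h and 0.31 and -0.03 at 24 h, and the kidney medians at the high dose are 0.40 at 8 h and 0.37 at 24 h.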

How the data were processed

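Libraries were stranded and enriched for poly-A RNA. Kidney and heart were powdered before RNA isolation and liver was not. The authors pseudo-aligned the reads with kallisto 0.42.2 to the Ensembl rat transcriptome (Rnor_6.0) and deposited estimated counts, which are neither normalized nor always whole, for each target. The deposited TPM values correct for target length and have the same sum in all libraries. Of the targets, 40071 were transcripts and 25095 were genomic intervals, which took 4.08% to 28.9% of the counts and were left out.

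CPM were computed over the transcripts, and the members by the rule given above. The members, lists and tests were chosen with earlier results of these data known. By the rule for naming, the 2 members with the largest 8 h difference were named, since no table paired transcripts with genes. Estimated counts were rounded, filtered with filterByExpr, scaled by TMM and tested with edgeR 4.0.16 (quasi-likelihood test, R 4.3.3) on the 2 groups of each comparison. p-values were adjusted by the Benjamini-Hochberg method over all transcripts tested. The call was an adjusted p of at most 0.01 with a difference of at least 0.60 on the natural log scale, after the study's thresholds. Each group had 5 animals, and the p-values measure the spread between them. Without MS-1 the 24 h vehicle liver group had 4 libraries, as did the 8 h low-dose liver group without MS-9. Alternatives were DESeq2 1.42.0, limma 3.58.1 on log2(TPM + 1), no filter, no limit on size, scaling by library total and kidney libraries numbered up to 90 alone (both chosen after seeing the data), and leaving out single libraries. The edgeR script was tested on simulated data. Figures were drawn with matplotlib 3.10.9.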

Additional observations from a re-analysis of the deposited data

Results flagged for a closer look

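In 30 groups of values examined, 2 held a value far from the others, by the gap to the nearest sample over the range of the group. Chance gives about 1 such group in 20. Both values come from library MS-1, the 24 h vehicle liver library that is nearly identical to the 8 h low-dose library MS-9. The summed level of the 63 members in it was 1829 CPM, where the nearest vehicle library held 863 CPM and the lowest 602 CPM. ENSRNOT00000046811 stood at 7.77 CPM in it, where the nearest vehicle library held 0.687 CPM and the lowest 0.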

How the results depend on the processing

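No comparison was paired, since the groups compared within an organ held different rats. The labels also give no replicate numbers that the groups share. The number of members was 63. It was 165 with MS-1 kept (54 of the 63 among them), 21 with the median not subtracted (10 among them), 48 to 80 with single libraries left out, and 60 to 78 with TPM, TMM scaling or another pseudocount, which shared 31 to 47 of the 63. A similar number thus did not mean the same transcripts.

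Between the low-dose liver times 19 members were called. limma on TPM called 3, scaling by library total 14, the fit without the filter 17, DESeq2 24 and the fit without the limit on size 28. The fit without MS-9 called 11, and single libraries left out gave 11 to 23. For the high dose in liver at 24 h, 0 were called, and 2 without the limit on size, 1 higher and 1 lower. DESeq2 called 1 higher, limma on TPM 32 higher and scaling by library total 35 higher (0 to 2 higher with single libraries left out). For the high dose in liver at 8 h, 56 became 59 by DESeq2 and 57 by limma (54 to 57 with single libraries left out). For the low dose in liver at 8 h, 30 became 17 without MS-9 and 27 without the filter (17 to 30 with single libraries left out). The count became 31 by limma, 34 by DESeq2 or without the limit on size, and 44 with scaling by library total. At 24 h, 0 became 1 lower without the limit on size, 4 higher by limma and 3 higher with scaling by library total. Single libraries left out gave 1 lower without MS-5, 1 higher without MS-4 and otherwise 0. In kidney at the high dose, 5 at 8 h became 8 without the limit on size, 6 by DESeq2 and 3 by limma (3 to 5 with single libraries left out). Each of these counts included 1 member called lower. At 24 h, 8 became 10 without the limit on size, 9 by DESeq2, 7 without the filter and 6 by limma (3 to 8 with single libraries left out). At the low dose in kidney at 8 h, DESeq2 called 1 lower. In heart at the high dose at 24 h, 1 became 3 without the limit on size, 0 without the filter and 0 by limma (0 to 1). The cause of these changes was not tested. The comparisons not listed kept 0 called members under the alternatives run.

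Some directions in liver at 24 h turned. For the high dose, ENSRNOT00000046811 went from 1.71 to -0.42 with MS-1 kept, as did the members' median from 0.25 to -0.01, and ENSRNOT00000019346 went from 0.32 to -0.30 without MS-91 (-0.30 to 0.54 with single libraries left out). For the low dose the members' median of -0.01 in the edgeR fit was 0.51 by limma on TPM, 0.50 with scaling by library total, 0.01 without the filter, and 0.01 and 0.08 without MS-22 and MS-4.

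The limits are the absence of gene names, at most 5 animals a group, reads shared among isoforms, a pair of near-identical libraries, and a scale that decides the level at 24 h. Scarce members had the larger standard errors, and whether counting error or the spread between animals gave these was not tested.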
